A study of Mus musculus with 15 samples.

Results

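The genes described here are the Hox genes of the 4 mouse clusters, Hoxa, Hoxb, Hoxc and Hoxd, together with 3 noncoding RNAs of those clusters, Hoxaas3, Hoxb5os and Hotairm1. Every listed gene named Hoxa, Hoxb, Hoxc or Hoxd followed by a number from 1 to 13 was taken, which gave 39 coding genes and, with the 3 noncoding RNAs, 42 members of the 23154 genes in the files. The choice used names only and no measured value. The cells were single cells of the mouse embryonic heart, picked one by one and sequenced with a modified Smart-seq2 protocol that captures the 3′ ends of polyadenylated RNA. There are 15 libraries, in 8 groups of 2 except 1 library for Isl1Cre at E9.25.

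Isl1Cre embryos carried Isl1Cre::Rosa26tdTomato and Nkx2-5Cre embryos Nkx2-5Cre::Rosa26tdTomato. Each was sampled at E7.75 and at E8.25, and then at E8.75 and at E9.25 (days of embryonic development). All groups therefore share the Rosa26tdTomato reporter, which marks cells that have made Cre and their descendants, and the groups differ in the gene whose control regions drive Cre. Islet 1 marks second heart field progenitors, among other cells, and Nkx2-5 marks early cardiac progenitors and cardiomyocytes. The titles give the lineage by its initial and, in the 7 groups of 2 libraries, the same embryo number for both, so a group probably holds cells of 1 embryo. The p-values then reflect how far the libraries of a group lie apart, possibly for technical reasons alone, and a difference of lineage or stage cannot be told apart from a difference between embryos. The protocol names FACS or simple trypsin digestion before picking and does not tie either to a library.

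After cells under 2000 counts or 1000 genes were set aside, 594 Isl1Cre cells and 738 Nkx2-5Cre cells remained, 61 to 94 per library, with library totals of 8165519 to 38321215 counts and median depths of 92068 to 360929 counts per cell. No cell name occurred in more than 1 library. Clustering of the cells without any Hox gene gave cardiomyocyte-like, endothelial-like, endoderm-like, posterior second heart field-like and other clusters. Mean Tnnt2, the cardiac troponin T gene, lay between 363 CPM (counts scaled to a total of 1e6 per cell) in the endothelial-like cluster 13 and 6609 CPM in the unnamed cluster 4.

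Hox genes encode homeodomain transcription factors that give cells a position along the body axis. Within a cluster the low-numbered (anterior, 3′) genes are switched on earlier and further forward than the high-numbered (posterior, 5′) genes, and retinoic acid, WNT and CDX factors act upstream of them. HOX proteins bind DNA together with the TALE homeodomain proteins PBX and MEIS. In the heart, anterior Hox genes such as Hoxb1 and Hoxa3 are known from the posterior second heart field, which contributes to the atria and the outflow tract, while posterior Hox genes are known from the caudal mesoderm.

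Of the 42 members, 36 had a count in at least 1 kept cell and 6 had none in any of the 1332 cells, namely Hoxa13, Hoxb13, Hoxc11, Hoxc12, Hoxc13 and Hoxd12. All 36 detected members were detected in Isl1Cre E8.25. Both Isl1Cre E8.25 libraries lay above all 13 other libraries for 27 of the 42 members, against 2.1% of all listed genes. By position these were 7 of the 12 genes of paralog groups 1 to 4, 19 of the 27 genes of groups 5 to 13, and 1 of the 3 noncoding RNAs. Against both Nkx2-5Cre E8.25 libraries alone, the Isl1Cre E8.25 libraries were higher for 30 of the 42 members, against 16.2% of all listed genes. By cells, Hotairm1 had a count in 453 of the 1332 cells (123 of them Isl1Cre E8.25 cells), Hoxb2 in 450 (90), Hoxb3 in 336 (44) and Hoxb1 in 221 (28), and these were among the most often detected members. Of the posterior genes Hoxb6 had a count in 120 cells (103 of them Isl1Cre E8.25 cells), Hoxc9 in 75 (73), Hoxa9 in 70 (68), Hoxd9 in 68 (60), Hoxc8 in 62 (48) and Hoxa10 in 55 (55). The rarest detected members were Hoxa6, in 2 cells, and Hoxa3 and Hoxd13, in 3 cells each. The figure of levels per library shows posterior genes as a block in those libraries, and anterior genes also at E7.75.

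**Figure D1:**
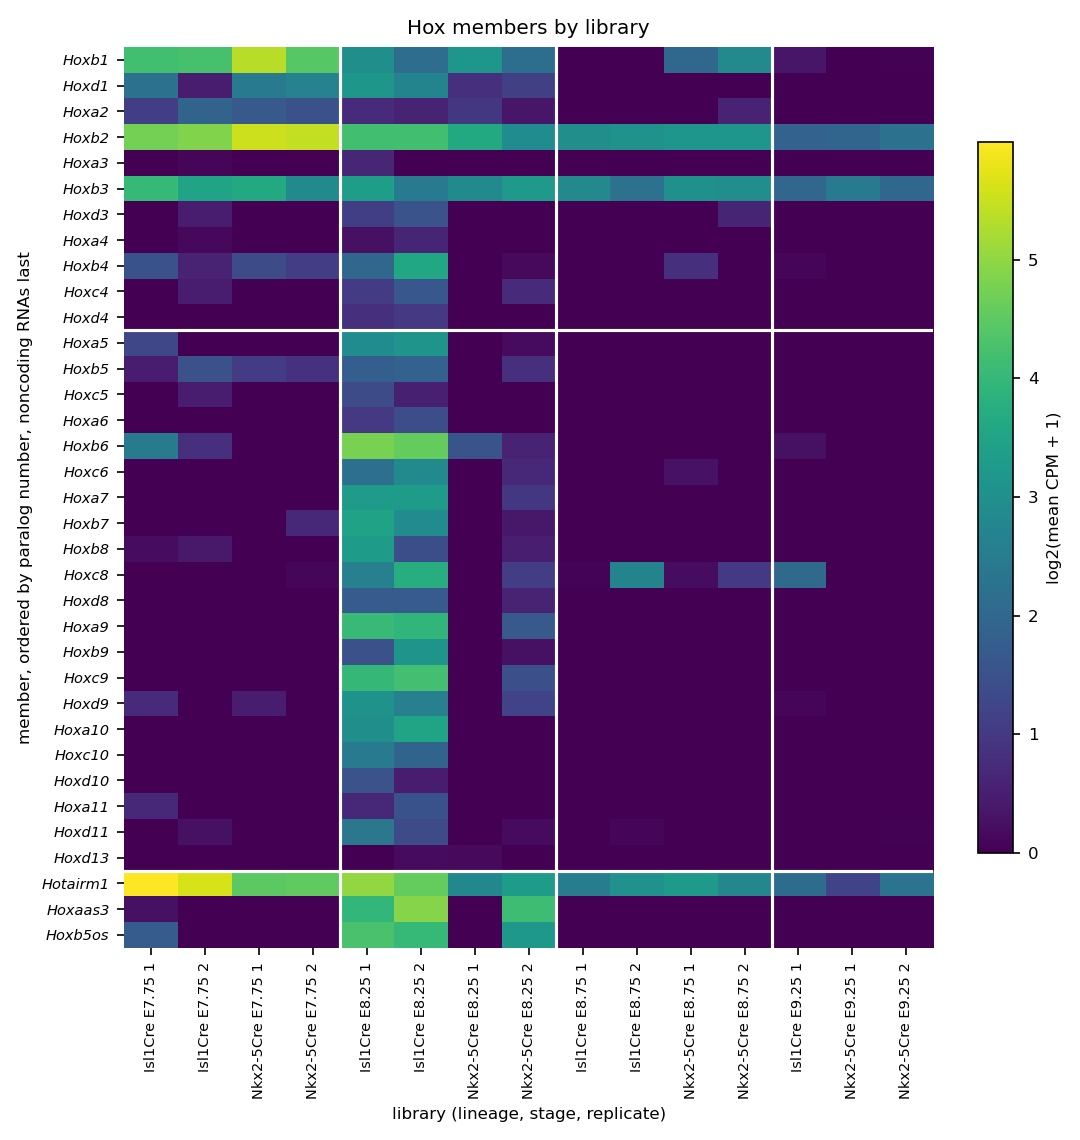
Mean level of the detected Hox members described here (rows, ordered by paralog number, noncoding RNAs apart) in each of the 15 libraries (columns), as log2(mean CPM + 1). Genes of paralog groups 5 to 13 are seen in the 2 Isl1Cre E8.25 libraries and are at or under 5.52 CPM in the others, while Hoxb1, Hoxb2 and Hotairm1 are also seen at E7.75.

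The members lie in 4 clusters, Hoxa on chromosome 6 (minus strand), Hoxb on chromosome 11, Hoxc on chromosome 15 and Hoxd on chromosome 2 (all plus strand; GENCODE M21, GRCm38, the assembly also called mm10). Promoters of genes the results turn on are printed here so that an anterior gene can be set beside posterior ones. They are RefSeq windows of 300 bases (GRCm38.p6), 250 before and 50 after the annotated start, written on the strand of the gene. Capitals mark TTTATG (the core of a CDX site) and AGGTCA (a single retinoic acid receptor binding unit), each searched on both strands. Hoxb1 is chr11:96365508-96365807 on the plus strand, Hoxa5 is chr6:52204538-52204837, Hoxa7 is chr6:52218524-52218823 and Hoxa9 is chr6:52227321-52227620, the last 3 on the minus strand.
Hoxb1: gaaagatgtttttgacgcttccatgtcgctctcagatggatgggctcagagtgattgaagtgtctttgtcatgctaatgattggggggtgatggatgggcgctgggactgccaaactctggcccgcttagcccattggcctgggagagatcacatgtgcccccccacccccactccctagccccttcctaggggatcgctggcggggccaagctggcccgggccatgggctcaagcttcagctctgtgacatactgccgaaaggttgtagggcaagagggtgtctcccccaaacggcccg
Hoxa5: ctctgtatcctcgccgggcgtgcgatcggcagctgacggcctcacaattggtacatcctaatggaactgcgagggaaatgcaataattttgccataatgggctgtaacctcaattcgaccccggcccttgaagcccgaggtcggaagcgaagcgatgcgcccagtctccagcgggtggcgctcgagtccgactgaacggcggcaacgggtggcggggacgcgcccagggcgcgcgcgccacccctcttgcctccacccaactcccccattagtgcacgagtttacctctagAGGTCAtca
Hoxa7: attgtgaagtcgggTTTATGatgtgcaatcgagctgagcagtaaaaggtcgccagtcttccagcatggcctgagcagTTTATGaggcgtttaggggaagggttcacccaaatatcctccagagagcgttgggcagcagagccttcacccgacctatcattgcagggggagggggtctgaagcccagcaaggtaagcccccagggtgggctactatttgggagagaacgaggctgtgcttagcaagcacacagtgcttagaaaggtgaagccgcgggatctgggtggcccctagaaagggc
Hoxa9: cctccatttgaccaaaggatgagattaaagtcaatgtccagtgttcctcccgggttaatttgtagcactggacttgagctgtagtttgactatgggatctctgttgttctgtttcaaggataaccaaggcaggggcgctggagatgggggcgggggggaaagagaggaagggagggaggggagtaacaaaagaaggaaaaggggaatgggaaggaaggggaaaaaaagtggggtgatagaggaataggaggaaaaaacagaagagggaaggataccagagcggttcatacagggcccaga
The Hoxa7 window holds 2 TTTATG matches, the Hoxa5 window holds 1 AGGTCA match, and the Hoxb1 and Hoxa9 windows hold neither. A window was listed for 22 of the 42 members, 24 windows in all. TTTATG was found in 5 of the 24 (20.8%) and in 11.9% of all 32851 promoter windows, AGGTCA in 7 (29.2%) and in 16.3%, and the PBX-HOX motif TGATTNAT in 2 (8.33%) and in 3.22%. A match is a run of letters and not a site shown to be bound.

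Anterior Hox genes were present in both lineages at E7.75 and were lower at E8.75 and E9.25. Levels here are the mean CPM over the cells of a library, so fewer cells with a transcript and fewer transcripts per cell cannot be told apart. Hoxb1, a hindbrain and second heart field gene, had 17.0 and 17.9 CPM in the Isl1Cre E7.75 libraries, against 39.5 and 20.8 CPM in the Nkx2-5Cre E7.75 libraries. At E8.25 it had 6.93 and 3.41 CPM in Isl1Cre against 7.80 and 3.48 CPM in Nkx2-5Cre, and at E8.75 it was at 0 in both Isl1Cre libraries, against 3.00 and 6.11 CPM in Nkx2-5Cre. At E9.25 it was at 0.285 CPM in Isl1Cre, against 0 and 0.0187 CPM in Nkx2-5Cre. The E7.75 libraries of either lineage were above all later libraries, and the lineages overlapped at E8.25.

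Hoxb2, its neighbour in the cluster, had 25.7 and 28.2 CPM in Isl1Cre E7.75 against 45.3 and 42.4 CPM in Nkx2-5Cre E7.75, and 17.1 CPM in both Isl1Cre E8.25 libraries against 11.6 and 6.57 CPM in Nkx2-5Cre E8.25. It was still at 6.82 and 7.33 CPM in Isl1Cre E8.75 against 7.89 and 7.81 CPM in Nkx2-5Cre E8.75, and at 2.67 CPM in Isl1Cre E9.25 against 2.91 and 3.68 CPM in Nkx2-5Cre E9.25. Nkx2-5Cre was thus higher at E7.75 without overlap, Isl1Cre at E8.25. Hoxb3 had 15.1 and 10.4 CPM in Isl1Cre against 11.5 and 6.16 CPM in Nkx2-5Cre at E7.75, and 9.19 and 4.46 CPM in Isl1Cre against 6.35 and 8.38 CPM in Nkx2-5Cre at E8.25. At E8.75 it had 6.01 and 3.69 CPM in Isl1Cre against 7.06 and 6.71 CPM in Nkx2-5Cre, and at E9.25 2.97 CPM in Isl1Cre against 4.53 and 3.09 CPM in Nkx2-5Cre. Hoxb3 passed the test in none of the 12 comparisons, and its lineages overlapped at E7.75 and E8.25.

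Hoxd1, an anterior gene of the Hoxd cluster, had 3.83 and 0.405 CPM in Isl1Cre against 4.53 and 5.33 CPM in Nkx2-5Cre at E7.75, 8.05 and 5.53 CPM in Isl1Cre against 0.765 and 1.21 CPM in Nkx2-5Cre at E8.25, and no count in any library of E8.75 or E9.25. Its lineages did not overlap at either of the earlier stages, with Isl1Cre lower at E7.75 and higher at E8.25. A further 7 genes of paralog groups 1 to 4, Hoxa2, Hoxa3, Hoxa4, Hoxb4, Hoxc4, Hoxd3 and Hoxd4, did not pass the filter of 5 CPM in 2 libraries. They stayed at or under 2.92 CPM in every library except Hoxb4, at 11 CPM in Isl1Cre E8.25 replicate 2.

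The noncoding RNAs divided. Hotairm1, which is known to modulate anterior HOXA genes in human myeloid cells, had 62.7 and 48.9 CPM in Isl1Cre E7.75 against 21.3 and 22.0 CPM in Nkx2-5Cre E7.75, and 31.6 and 23.0 CPM in Isl1Cre E8.25 against 5.99 and 8.83 CPM in Nkx2-5Cre E8.25. At E8.75 it had 4.80 and 7.23 CPM in Isl1Cre against 8.29 and 5.81 CPM in Nkx2-5Cre, and at E9.25 3.33 CPM in Isl1Cre against 1.32 and 3.86 CPM in Nkx2-5Cre. Isl1Cre was above Nkx2-5Cre without overlap at E7.75 and E8.25, and the lineages overlapped later. Hoxaas3 had 14.7 and 28.8 CPM in Isl1Cre E8.25 against 0 and 16.7 CPM in Nkx2-5Cre E8.25, with 0.209 CPM in Isl1Cre E7.75 replicate 1 and 0 in all other libraries. Hoxb5os had 18.2 and 15.1 CPM in Isl1Cre E8.25 against 0 and 8.22 CPM in Nkx2-5Cre E8.25, with 2.35 CPM in Isl1Cre E7.75 replicate 1 and 0 in all other libraries. Hoxaas3 overlapped between the lineages at E8.25 and Hoxb5os did not. The levels of both RNAs in Nkx2-5Cre E8.25 replicate 2 rest on 2 cells, with Hoxaas3 at 1025 and 509 CPM. Without these 2 cells that library had 0.174 CPM of Hoxaas3, under both Isl1Cre E8.25 libraries, and 0.134 CPM of Hoxb5os.
The 3 RNAs are antisense to coding members. On the opposite strand, Hoxaas3 overlaps 5 members (Hoxa3 to Hoxa7) and Hoxb5os overlaps 2 (Hoxb5 and Hoxb6). No source used here says whether counting used strand, so the split of reads within these pairs is uncertain. It is also uncertain for coding members whose annotated spans overlap on 1 strand, namely Hoxa3 with Hoxa4, Hoxa5 and Hoxa6, Hoxc5 with Hoxc6, Hoxc8, Hoxc9 and Hoxc10, and Hoxd3 with Hoxd4.

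**Figure D2:**
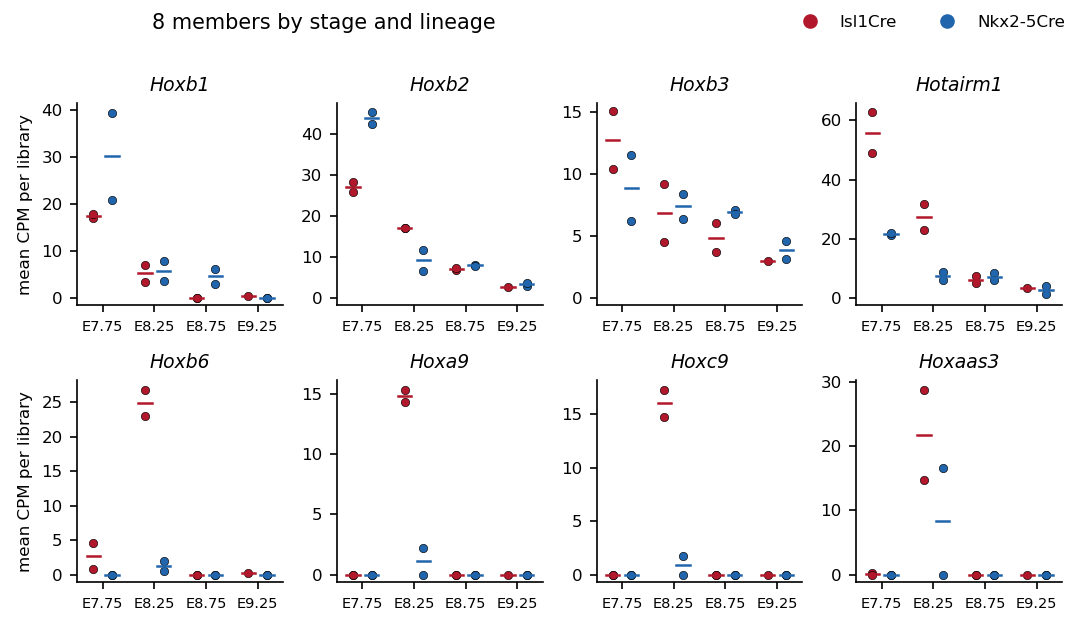
Mean CPM of 8 Hox members by stage (x axis) in each library (points) with the mean of the group (bar), Isl1Cre left of Nkx2-5Cre at each stage. Hoxb1 and Hoxb2 are highest at E7.75 in Nkx2-5Cre, and the posterior genes in Isl1Cre at E8.25.

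Within the E7.75 libraries the anterior genes differed between clusters of cells, given here as a description. In Isl1Cre E7.75, Hoxb1 averaged 31.7 and 30.2 CPM in cluster 7 (posterior second heart field-like, led by Aldh1a2, the retinoic acid synthesis enzyme), against 1.32 and 0.148 CPM in cluster 11. Hotairm1 averaged 99.7 and 79.0 CPM in cluster 7 against 5.73 and 6.70 CPM in cluster 11. Hoxb2 differed less, at 25.3 and 37.5 CPM in cluster 7 against 21.9 and 14.5 CPM in cluster 11. Cluster 11 had the higher level of cardiac troponin: median Tnnt2 was 439 CPM in cluster 7 and 2792 CPM in cluster 11.
In Nkx2-5Cre E7.75 the anterior genes were highest in cluster 9, an unnamed cluster led by Apoa1, Rbp4, Ttr and Twist1. Hoxb1 averaged 76.5 and 101 CPM there, against 10.1 and 8.35 CPM in cluster 5, and median Tnnt2 was 880 CPM in cluster 9 and 2526 CPM in cluster 5. Hoxb2 averaged 69.2 and 102 CPM in cluster 9 against 29.8 and 33.0 CPM in cluster 5. Cluster 9 made up 39 cells of replicate 1 and 13 cells of replicate 2, and the Nkx2-5Cre E7.75 mean of Hoxb1 moved with it (39.5 and 20.8 CPM); the part of cell composition in that difference was not tested.

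Genes of paralog groups 5 to 13 were seen mostly in Isl1Cre at E8.25. Hoxb6, a gene of the trunk mesoderm, had 26.8 and 22.9 CPM in Isl1Cre E8.25, against 1.96 and 0.477 CPM in Nkx2-5Cre E8.25. Its other values were 4.57 and 0.749 CPM in Isl1Cre E7.75, 0.206 CPM in Isl1Cre E9.25 and 0 in the remaining libraries. The 2 Isl1Cre E8.25 libraries stood above all others.
Hoxa9 had 15.4 and 14.3 CPM in Isl1Cre E8.25 against 0 and 2.20 CPM in Nkx2-5Cre E8.25, and Hoxc9, of the same paralog group, 14.8 and 17.3 CPM in Isl1Cre E8.25 against 0 and 1.78 CPM in Nkx2-5Cre E8.25. Neither had a count in any other library. Hoxa10 had 6.87 and 10.3 CPM in Isl1Cre E8.25 and no count in any of the other 13 libraries. With 476 summed counts of 29562630 in Isl1Cre E8.25 and 0 of 35642933 in Nkx2-5Cre E8.25, Hoxa10 was at least 191-fold higher per summed count when the count of 0 is set to 3 counts over the group. The groups of these 3 genes did not overlap.
Hoxa5 had 6.53 and 7.63 CPM in Isl1Cre E8.25 against 0 and 0.125 CPM in Nkx2-5Cre E8.25, and 1.43 CPM in Isl1Cre E7.75 replicate 1. Hoxa7 had 8.82 and 8.80 CPM in Isl1Cre E8.25 against 0 and 0.947 CPM in Nkx2-5Cre E8.25, and no count elsewhere. Hoxb7 had 9.89 and 6.45 CPM in Isl1Cre E8.25 against 0 and 0.316 CPM in Nkx2-5Cre E8.25, and 0.591 CPM in Nkx2-5Cre E7.75 replicate 2. All 3 were separated at E8.25.
Hoxd9 had 7.42 and 5.13 CPM in Isl1Cre E8.25 against 0 and 1.30 CPM in Nkx2-5Cre E8.25, with 0.635 CPM in Isl1Cre E7.75 replicate 1, 0.406 CPM in Nkx2-5Cre E7.75 replicate 1, 0.0525 CPM in Isl1Cre E9.25 and 0 elsewhere. Hoxc8 had counts in 9 libraries, with 5.13 and 12.3 CPM in Isl1Cre E8.25 against 0 and 1.13 CPM in Nkx2-5Cre E8.25, 0.0344 and 5.52 CPM in Isl1Cre E8.75 against 0.147 and 1.01 CPM in Nkx2-5Cre E8.75, 3.24 CPM in Isl1Cre E9.25 against 0 in Nkx2-5Cre E9.25, and 0.0645 CPM in Nkx2-5Cre E7.75 replicate 2. The 5.52 CPM of Hoxc8 in Isl1Cre E8.75 replicate 2 rest on 2 counts in 2 cells, and the 3.24 CPM in Isl1Cre E9.25 on 6 counts in 5 cells. Of the 18 remaining members of groups 5 to 13, 12 were detected without passing the filter, at up to 8.83 CPM (Hoxb8 in Isl1Cre E8.25 replicate 1).

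The lineages were compared at each stage with limma on log2(mean CPM + 1) over 10665 genes, of which 17 were members; p-values are adjusted by Benjamini-Hochberg over all genes, and a change counts at an adjusted p under 0.05. Of these 17 members, 12 passed the filter on low values only through the Isl1Cre E8.25 libraries, so a difference involving that group is partly set by the filter and the counts below are descriptions. At E8.25, 10 of the 17 were higher in Isl1Cre, against 2.48% of all tested genes higher. They included Hotairm1 and 8 posterior genes, Hoxa5, Hoxa7, Hoxa9, Hoxa10, Hoxb6, Hoxb7, Hoxc9 and Hoxd9.
Hoxb6 had a log2 change of 3.59 ± 0.62 (SE, adjusted p = 0.00269) and Hoxc9 of 3.32 ± 0.61 (adjusted p = 0.00381). These changes are on the log2(CPM + 1) scale, which understates the change of low genes, and that of Hoxa10 (3.21 ± 0.58, adjusted p = 0.00343) depends on the pseudocount and is no bound. Hoxb1 and Hoxb2 did not pass, at means of 5.17 and 17.1 CPM in Isl1Cre E8.25 against 5.64 and 9.07 CPM in Nkx2-5Cre E8.25. The count was 6 with edgeR and 5 with DESeq2 on whole counts, 3 and 5 without Isl1Cre E8.25 replicates 1 and 2, and 5 without Nkx2-5Cre E8.25 replicate 1, while among cardiomyocyte-like cells alone, where 7 members could be tested, it was 0.

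At the other stages no member passed with limma. At E7.75 the count was 0 of 17 against 7.13% of all tested genes, with 2 members at an unadjusted p under 0.05 and 1 called by each of edgeR and DESeq2, and it was 1 when either E8.75 library of Isl1Cre, the Isl1Cre E9.25 library or either E9.25 library of Nkx2-5Cre was left out. At E8.75 it was 0 against 0.319%, with 2 at an unadjusted p under 0.05 and 1 called by each of edgeR and DESeq2. At E9.25 it was 0 against 0.975%, with 1 at an unadjusted p under 0.05, 0 by edgeR and 1 by DESeq2; Isl1Cre has 1 library there.
Averaged over the 4 stages, 3 of the 17 members were higher in Isl1Cre, against 3.68% of all tested genes higher. Hotairm1 averaged 23.1 CPM in Isl1Cre against 9.67 CPM in Nkx2-5Cre (log2 change 0.83 ± 0.22, adjusted p = 0.0267 with limma). Hoxb6 averaged 6.93 CPM in Isl1Cre against 0.305 CPM in Nkx2-5Cre (1.38 ± 0.33, adjusted p = 0.0149), and Hoxc8 3.68 CPM in Isl1Cre against 0.294 CPM in Nkx2-5Cre (1.37 ± 0.40, adjusted p = 0.0439). Hoxb6 and Hoxc8 passed the filter on low values only through the Isl1Cre E8.25 libraries, so these calls are partly set by the filter. The Hoxb6 change was largest at E8.25, at 3.59, against 1.67 at E7.75, 0 at E8.75 and 0.28 at E9.25. The Hoxc8 change was −0.05 at E7.75, 2.60 at E8.25 (adjusted p = 0.0532 with limma), 0.77 at E8.75 and 2.13 at E9.25. At E8.75 and E9.25 it rests on 3 and 6 Isl1Cre counts, and Isl1Cre E9.25 is 1 library. The count was 1 without replicate 1 of Isl1Cre E7.75, Nkx2-5Cre E7.75, Nkx2-5Cre E8.25 or Nkx2-5Cre E9.25 or replicate 2 of Isl1Cre E8.75, and 6 without Nkx2-5Cre E8.25 replicate 2.

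Between stages, posterior genes rose at E8.25 and fell at E8.75 in Isl1Cre. At E8.25 against E7.75, 11 of the 17 members were higher, against 7.94% of all tested genes, and 1 was lower, against 4.26%. The 11 passed the filter on low values only through the Isl1Cre E8.25 libraries, so their rise is partly set by the filter. The 11 were the 8 posterior genes named above, Hoxc8, Hoxaas3 and Hoxb5os, and the 1 was Hoxb1, which averaged 5.17 CPM at E8.25 against 17.4 CPM at E7.75 (log2 change −1.71 ± 0.53, adjusted p = 0.0414 with limma). Counts of 0 at E7.75 put Hoxa9 at least 177-fold, Hoxc9 at least 170-fold and Hoxb7 at least 120-fold higher at E8.25 over summed counts, by the same floor of 3 counts over the group. These folds also give deep cells more weight. The number called was 6 without Isl1Cre E7.75 replicate 2 and 2 with DESeq2.
At E8.75 against E8.25, 14 of the 17 members were lower in Isl1Cre, against 5.37% of all tested genes lower, and this fall too is partly set by the filter. Hotairm1 averaged 6.02 CPM at E8.75 against 27.3 CPM at E8.25 (log2 change −1.98 ± 0.41, adjusted p = 0.00522 with limma). Hoxb6 had no count at E8.75 against 900 counts at E8.25 and was at least 198-fold lower over summed counts at E8.75. Hoxb2, Hoxb3 and Hoxc8 were the 3 tested members that did not pass, and DESeq2 called 6 members.
At E9.25 against E8.75 no member passed in Isl1Cre with limma, against 0.553% of all tested genes, with 1 at an unadjusted p under 0.05 and 1 called by each of edgeR and DESeq2.

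In Nkx2-5Cre, Hoxb1, Hoxb2 and Hotairm1 fell at E8.25. At E8.25 against E7.75, 3 of the 17 members were lower, against 5.91% of all tested genes lower. Hoxb2 averaged 9.07 CPM at E8.25 against 43.8 CPM at E7.75 (log2 change −2.20 ± 0.36, adjusted p = 0.000389 with limma), Hoxb1 5.64 CPM at E8.25 against 30.1 CPM at E7.75 (−2.24 ± 0.53, adjusted p = 0.00777) and Hotairm1 7.41 CPM at E8.25 against 21.6 CPM at E7.75 (−1.45 ± 0.41, adjusted p = 0.025). The count was 1 without Nkx2-5Cre E7.75 replicate 1 or Nkx2-5Cre E8.25 replicate 2, 6 with edgeR and 5 with DESeq2.
At E8.75 against E8.25 no member passed in Nkx2-5Cre, against 0.244% of all tested genes, with 1 at an unadjusted p under 0.05 and 0 by edgeR and DESeq2, and 1 was called without Nkx2-5Cre E8.25 replicate 1. At E9.25 against E8.75, 2 of the 17 were lower, against 0.797% of all tested genes lower. Hoxb1 was among them, at a mean of 0.00935 CPM at E9.25 against 4.56 CPM at E8.75 (−2.41 ± 0.53, adjusted p = 0.0262 with limma). Without Nkx2-5Cre E8.75 replicate 1 the count was 1, and it was 0 without Nkx2-5Cre E8.75 replicate 2 or either Nkx2-5Cre E9.25 library.
A test of whether the lineage difference varied with stage called 2 of the 17 members, Hoxa10 and Hoxc9, against 4.9% of all tested genes. The count was 3 without Nkx2-5Cre E8.25 replicate 2, 1 without replicate 2 of Isl1Cre E7.75 or Nkx2-5Cre E7.75 or replicate 1 of Nkx2-5Cre E8.25, and 0 without any of the 10 other libraries of the paired groups.

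The share of cells with any Hox member was compared after each cell was thinned to 20000 counts, which left out 106 shallower cells. At E7.75 a member was detected in 93 of 166 Isl1Cre cells (56.0%, exact 95% interval 48.1 to 63.7) against 121 of 170 Nkx2-5Cre cells (71.2%, 63.7 to 77.9). At E8.25 it was 137 of 168 Isl1Cre cells (81.5%, 74.8 to 87.1) against 56 of 177 Nkx2-5Cre cells (31.6%, 24.9 to 39.0). At E8.75 it was 19 of 121 Isl1Cre cells (15.7%, 9.73 to 23.4) against 48 of 169 Nkx2-5Cre cells (28.4%, 21.7 to 35.8), and at E9.25 15 of 83 Isl1Cre cells (18.1%, 10.5 to 28.0) against 21 of 172 Nkx2-5Cre cells (12.2%, 7.72 to 18.1). The intervals of the lineages lay far apart at E8.25, lay next to each other without overlap at E7.75 and overlapped at E8.75 and E9.25. They cover counting error only, since the cells of a group share libraries.
Without thinning the shares over the 4 stages were 83.4%, 95.7%, 37.3% and 37.4% in Isl1Cre, against 94.6%, 60.4%, 46.7% and 27.2% in Nkx2-5Cre, whose E7.75 replicate 1 was the deepest library per cell. Per library the thinned share was 82.9% and 80.2% in Isl1Cre E8.25 against 27.8% and 35.6% in Nkx2-5Cre E8.25, without overlap.

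The highest paralog number in a cell, a reading of how far along the cluster its transcripts reached, set Isl1Cre E8.25 apart. Its median among cells with a coding member was 9 in Isl1Cre E8.25 and 2 to 3 in the other 7 groups. A member of groups 5 to 13 was found in 93 of 168 thinned Isl1Cre E8.25 cells (55.4%, exact 95% interval 47.5 to 63.0) against 6 of 177 Nkx2-5Cre E8.25 cells (3.39%, 1.25 to 7.23). A member of groups 9 to 13 was the highest in 68 of the Isl1Cre cells and 3 of the Nkx2-5Cre cells.
At E7.75 the share with a member of groups 5 to 13 was 9 of 166 Isl1Cre cells (5.42%) against 3 of 170 Nkx2-5Cre cells (1.76%). At E8.75 it was 0 of 121 Isl1Cre cells, where the exact interval allows up to 3.00%, against 1 of 169 Nkx2-5Cre cells (0.592%). At E9.25 it was 4 of 83 Isl1Cre cells (4.82%) against 0 of 172 Nkx2-5Cre cells, where the interval allows up to 2.12%. All 4 of these Isl1Cre E9.25 cells were cardiomyocyte-like cells of cluster 2, of which 18 were thinned.

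**Figure D3:**
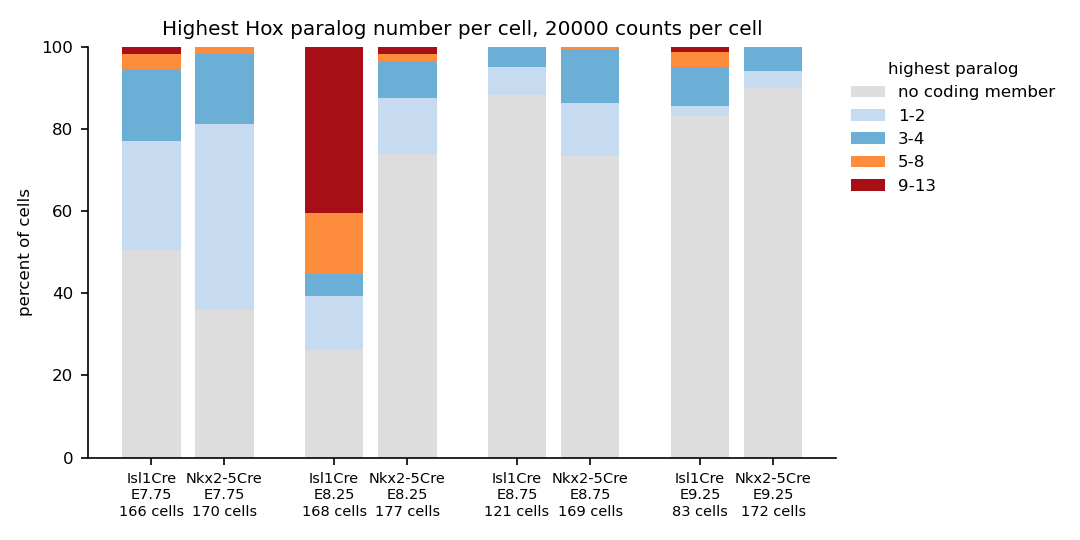
Percent of cells (y axis) by the highest Hox paralog number detected in the cell after thinning to 20000 counts, for each stage and lineage (x axis, with the number of cells). Paralogs 9 to 13 are the highest in 40.5% of Isl1Cre E8.25 cells and in at most 1.81% of the cells of any other group.

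Posterior Hox transcripts were unevenly spread over the Isl1Cre E8.25 cells. Cluster 14, of 35 cells, held 33 cells of Isl1Cre E8.25 (18 and 15 by library) and 2 of Nkx2-5Cre E8.25 replicate 2. It was named allantois and posterior lateral plate-like from its markers, although its first gene, Etv2, drives endothelial and blood fate; Pitx1, Cdx4, Hlx and Tbx4, hindlimb, caudal and allantoic genes, were among its leading 10 genes. These cells were 19.4% and 16.1% of the Isl1Cre E8.25 libraries and held 64.3% and 65.1% of the summed CPM of groups 5 to 13.
Each of the 33 cells carried 8 to 25 members (median 17), and the highest paralog number was 11 in 15 cells, 10 in 13, 9 in 3 and 8 in 2. Their median depth was 184346 counts against 99599 counts in cluster 6, the cardiomyocyte-like cluster with most Isl1Cre E8.25 cells (94). In the 2 Nkx2-5Cre cells, 14 and 16 members were detected, and those cells held 90% of the posterior CPM of their library.

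Set against cluster 6, posterior genes of cluster 14 were many-fold higher, while Hoxb2 and Hoxb3 differed less. Hoxb6 averaged 88.0 and 99 CPM in cluster 14 against 7.38 and 7.748 CPM in cluster 6, by library. Hoxa5 averaged 32.9 and 39.1 CPM in cluster 14 against 0.138 and 1.07 CPM in cluster 6, and Hoxa7 29.9 and 45.1 CPM in cluster 14 against 0.745 and 0.758 CPM in cluster 6. Hoxb2 averaged 26.2 and 34.0 CPM in cluster 14 against 18.3 and 12.5 CPM in cluster 6.
Over the members at 5 CPM or more in cluster 14 in both libraries, the ratio of cluster 6 to cluster 14 had a median of 0.0451 and 0.0693 for 14 posterior genes and 0.421 and 0.369 for 5 anterior genes. Among the anterior genes, Hoxd1 (0.421 and 0.00946) and Hoxb4 (0.170 and 0.00547) differed between the libraries. The posterior medians lie near the ratios of other genes of cluster 14, Pitx1 (0.0288 and 0.0616), Cdx4 (0.0487 and 0.0636) and Tbx4 (0.0376 and 0.102). Single posterior genes varied, from 0 to 0.317 in replicate 1 and from 0 to 0.125 in replicate 2. For scale, Ttr, a gene of the endoderm-like cluster 12, had a ratio of cluster 6 to cluster 12 of 0.0163 and 0.0364. Whether RNA of other cells had a part in the low posterior counts of cluster 6 was not tested.

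The number of cells that counted as posterior depended on the count required. With 1 count after thinning, a gene of groups 5 to 13 was found in 33 of 33 cells of cluster 14, in 8 of 8 of the endothelial-like cluster 13, in 6 of 14 of the endoderm-like cluster 12 and in 37 of 91 (40.7%) of cluster 6. With at least 5 counts and no thinning, a threshold chosen after seeing the data, it was 31 of 33 (93.9%) in cluster 14, 6 of 8 in cluster 13, 1 of 14 in cluster 12, 0 of 14 in the cardiomyocyte-like cluster 10 and 3 of 94 (3.19%) in cluster 6. A member of any group reached 5 counts in 35 of the 94 cells of cluster 6 (37.2%). The summed CPM of groups 5 to 13 was 490 in cluster 14, 268 in cluster 13, 156 in cluster 10, 54.1 in cluster 12 and 35.0 in cluster 6, at median depths of 184346, 139372, 5300, 128542 and 99599 counts. Cluster 10 thus lay above clusters 12 and 6 by summed level, at a far lower depth than the others, and 13 of its 14 cells were too shallow to be thinned. Most cells of clusters 14 and 13, and few of clusters 12 and 6, thus reached 5 counts of a posterior gene. Without thinning, 5 counts ask for a higher CPM in a shallower cell, so these shares are no comparison of level alone. At a median of 5300 counts the cells of cluster 10 could hardly reach them, so its 0 of 14 says little.

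**Figure D4:**
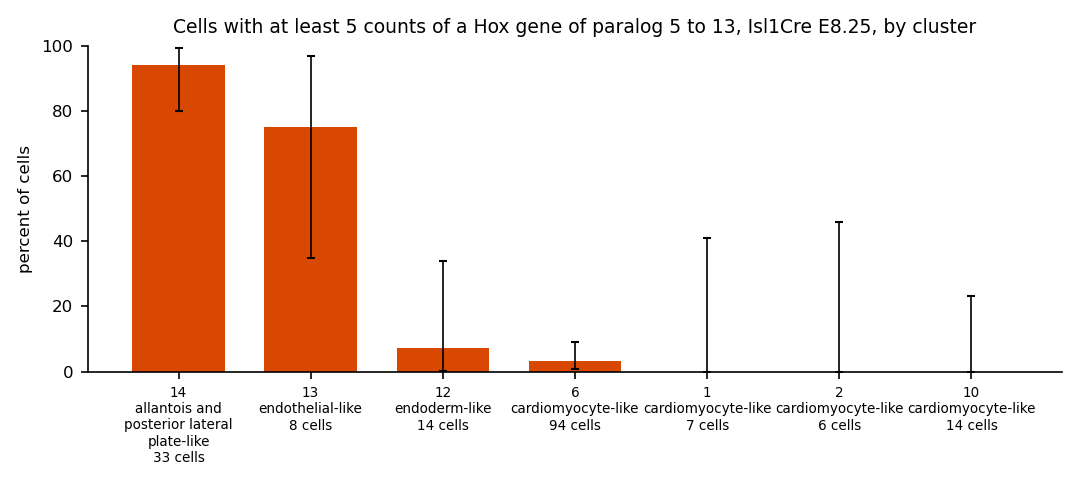
Percent of Isl1Cre E8.25 cells (bars, with exact 95% intervals) with at least 5 counts of a Hox gene of groups 5 to 13, for each cluster with at least 5 cells. Clusters 14 (93.9%) and 13 stand above cluster 6 (3.19%).

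Marker lists of cell types moved in both directions between clusters 14 and 6. Of the 7 allantois and posterior lateral plate markers, 6 were at least 2-fold higher in cluster 14 than in cluster 6 after 10 CPM was added to each level, with a summed level of 443 CPM in cluster 14 against 125 CPM in cluster 6. Cluster 14 was named from this same list, so that result is partly set by the naming. The posterior and anterior second heart field lists summed lower in cluster 14 (250 against 531 CPM and 89.9 against 324 CPM). By the same rule 2 of 8 posterior markers (Foxf1 and Aldh1a2) and 1 of 6 anterior markers (Isl1) were at least 2-fold higher there. Wnt2, Sfrp5, Tbx5 and Mef2c were among those lower. The endoderm list summed higher in cluster 14 (2946 against 1961 CPM), mostly through Krt8 (1885 against 1356 CPM) and Krt18 (977 against 489 CPM). No endoderm marker of the 10 reached 2-fold, and Ttr and Spink1 were lower. None of the 10 cardiomyocyte markers was at least 2-fold higher in cluster 14, with 5357 CPM in cluster 14 against 29699 CPM in cluster 6, and median Tnnt2 was 720 CPM in cluster 14 against 4282 CPM in cluster 6. Of the 10 endothelial markers 2 were, Etv2 at 182 CPM in cluster 14 against 20.2 CPM in cluster 6 and Kdr at 29.6 CPM in cluster 14 against 3.45 CPM in cluster 6. The mean of Etv2 rests on few cells: over the 33 Isl1Cre E8.25 cells of cluster 14 its median was 21.8 CPM and its highest value 1639 CPM. The 10 endothelial markers summed to 345 CPM in cluster 14, with Etv2 the largest part, against 187 CPM in cluster 6. Pecam1, Cdh5 and Emcn were at or under 1.21 CPM in cluster 14. The 6 blood markers summed to 0.164 CPM in cluster 14 against 0.813 CPM in cluster 6, with Hbb-bh1, Hba-x, Hbb-y and Gata1 at 0 in cluster 14. The part of cell type in the Hox differences was not tested beyond leaving these cells out and the comparison among cardiomyocyte-like cells alone.
When the 35 cells of cluster 14 were left out, an alternative chosen after seeing the data, 7 members were higher in Isl1Cre at E8.25, against 1.65% of all tested genes higher. The genes tested were those that passed the filter on low values with these cells included. Without these cells Hoxc9, Hoxb7 and Hoxaas3, which are among the 7, would not have reached 5 CPM in 2 libraries. Hoxa9 then had 8.42 and 6.82 CPM in Isl1Cre against 0 in both Nkx2-5Cre libraries (log2 change 3.08 ± 0.56, adjusted p = 0.00473 with limma), and Hoxc9 had 4.70 and 8.38 CPM in Isl1Cre against 0 in both Nkx2-5Cre libraries (2.85 ± 0.57, adjusted p = 0.00946). The remaining Isl1Cre E8.25 cells were uneven. In cluster 6, Hoxa9 averaged 1.15 and 4.12 CPM and Hoxc9 3.31 and 3.90 CPM, by library. Clusters 13 and 10, of 8 and 14 cells, held 268 and 156 CPM summed over groups 5 to 13. The median depth of cluster 10 was 5300 counts. Hoxaas3 and Hoxb5os also passed, while Hoxa5, Hoxa7, Hoxa10, Hoxd9 and Hotairm1 no longer did, and their changes moved unequally. That of Hoxd9 was 2.16 ± 0.59 without these cells (adjusted p = 0.0538) against 2.22 ± 0.62 with them (adjusted p = 0.0445). That of Hoxa5 was 0.82 ± 0.64 without them (adjusted p = 0.589) against 2.89 ± 0.61 with them (adjusted p = 0.00869). Hoxa7 had 1.86 without them against 2.78 with them, Hoxa10 had 1.46 against 3.21 and Hotairm1 had 1.13 against 1.73. For Isl1Cre E8.25 against E7.75, 7 members were higher, against 9.28% of all tested genes, and Hoxb1 and Hotairm1 were lower, against 5.18%. For Isl1Cre E8.75 against E8.25 the number lower was 9, against 3.9% of all tested genes lower, and the difference over the 4 stages was passed by 0 members, against 6.25%.

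Cells of Isl1Cre E8.25 with at least 2 Hox members after thinning (55 and 45 by library) were set beside cells with none (14 and 17), as a description. The 10 other genes with the largest fold in both libraries, among those at 50 CPM or more in the cells with members and with 10 CPM added to each level, were Ets1, Xaf1, Etv2, Gm16702, H2-T23, Morc4, Spin2c, Lef1, Phlda2 and Gja1. Ets1, an endothelial and mesodermal transcription factor, had 65.6 and 53.4 CPM in cells with Hox members against 8.85 and 2.81 CPM in cells with none. Lef1, a mediator of WNT signalling, had 66.4 and 99.3 CPM in cells with Hox members against 25.3 and 28.1 CPM in cells with none. Tnnt2 ran the other way, with 2855 and 2649 CPM in cells with Hox members against 4931 and 5084 CPM in cells with none. Median depths before thinning were 102976 and 161092 counts in the cells with members, against 92414 and 263313 counts in the cells with none.

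Genes that act with or upstream of Hox genes changed in small numbers. None of the 9 TALE cofactors differed between lineages with limma at any stage or over the 4 stages, with 2 at an unadjusted p under 0.05 in the mean over stages; their median log2 change at E8.25 was −0.05, against 0.01 for all tested genes. Meis1, a HOX cofactor, was lower in Isl1Cre E8.25 than at E7.75 (85.5 CPM against 156 CPM, −0.91 ± 0.27, adjusted p = 0.0357). It was the 1 TALE call among the 11 comparisons with a direction.
Of 13 tested genes of the retinoic acid pathway, 2 were higher in Isl1Cre at E8.25, against 2.48% of all tested genes higher, and 0 lower (median log2 change 0.79 against 0.01). Aldh1a2 averaged 9.74 CPM in Isl1Cre against 1.22 CPM in Nkx2-5Cre (2.23 ± 0.62, adjusted p = 0.0426 with limma). Aldh1a2 was lower at the later stage in each step through E8.75 in Isl1Cre, at 40.8 CPM at E7.75, 9.74 CPM at E8.25 and 0 at E8.75. In Nkx2-5Cre 5 of the 13 were lower at E8.25 than at E7.75, against 5.91% of all tested genes lower (among them Aldh1a2, Crabp1, Crabp2 and Rarb; median log2 change −0.75 against −0.01 for all tested genes). In Isl1Cre 4 were lower at E8.75 than at E8.25, against 5.37% of all tested genes lower (among them Aldh1a2, Crabp1 and Rdh10; median −0.34 against −0.01).

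Of 4 tested upstream activators, Cdx4 was the 1 that was higher in Isl1Cre at E8.25, against 2.48% of all tested genes higher. Cdx4, a caudal homeobox activator of posterior Hox genes, averaged 12.2 CPM in Isl1Cre E8.25 against 1.81 CPM in Nkx2-5Cre E8.25 (2.59 ± 0.67, adjusted p = 0.0291 with limma). Cdx4 was a leading gene of cluster 14, at 61.9 and 53.8 CPM there against 3.02 and 3.42 CPM in cluster 6 of Isl1Cre E8.25. The 2 Nkx2-5Cre E8.25 cells of cluster 14 had 81.55 and 254.48 CPM. The part of these cells in the Cdx4 difference was not tested. Cdx4 had no count in Isl1Cre E7.75 or E8.75, and its change passed in both steps. Fgf8, a growth factor of the second heart field, was lower at E8.25 than at E7.75 in Isl1Cre (35.9 CPM against 75.6 CPM, −1.13 ± 0.28, adjusted p = 0.0118) and in Nkx2-5Cre (44.5 CPM against 131 CPM, −1.53 ± 0.28, adjusted p = 0.00116).
Of 17 tested chromatin regulators, 2 were higher in Isl1Cre at E8.25, against 2.48% of all tested genes higher, and 0 lower (median log2 change 0.29 against 0.01). They were Ezh2, the Polycomb methyltransferase, at 327 CPM in Isl1Cre against 180 CPM in Nkx2-5Cre (0.84 ± 0.18, adjusted p = 0.0118), and Kdm6b, the demethylase that removes its mark, at 499 CPM in Isl1Cre against 276 CPM in Nkx2-5Cre (0.82 ± 0.23, adjusted p = 0.0415). Ezh2 was also lower in Isl1Cre at E8.75 than at E8.25 (109 CPM against 327 CPM, −1.56 ± 0.18, adjusted p = 3.48e-05). Of 6 tested genes that flank the clusters, none differed between lineages with limma at E8.25, with 1 at an unadjusted p under 0.05 (median log2 change −0.19 against 0.01). Hibadh, beside the Hoxa cluster, was higher at E8.25 than at E7.75 in Isl1Cre (60.2 CPM against 35.5 CPM, 0.68 ± 0.20, adjusted p = 0.0358) and in Nkx2-5Cre (69.7 CPM against 30.1 CPM, 1.19 ± 0.20, adjusted p = 0.000582).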

How the data were processed

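The authors deposited CPM values (counts scaled to a cell total of 1e6) per gene and cell. Per the submitters' processing notes, CASAVA 1.8, TopHat2 2.0.12, HTSeq and mm10 were used; per the labels' protocols, the primers carried a cell barcode and a unique molecular identifier. Every low value, of 20 counts or fewer, was a whole number of counts within 0.1, so whole counts were recovered. Cells with at least 2000 counts and 1000 genes were kept, 1332 of 1400. No doublet caller was run, as cells were picked singly. The members and lists were chosen with earlier results of these data known.

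CPM values were averaged per library, and genes at 5 CPM or more in at least 2 libraries (10665) were scaled by TMM (factors 0.955 to 1.04), and log2(mean CPM + 1) was tested with limma 3.58.1 in R 4.3.3, with 8 group means and 7 residual degrees of freedom. A count test had been planned as the main one, but the deposited unit is CPM, so edgeR 4.0.16 and DESeq2 1.42.0 on recovered counts were alternatives. Adjusted p-values are Benjamini-Hochberg over all tested genes, two-sided, at a threshold of 0.05. Intervals are exact binomial intervals at 95%, shares used cells thinned to 20000 counts, and neither these nor floors of 3 counts cover more than counting error. Clusters came from leidenalg 0.10.2 (resolution 1, 30 principal components, 15 neighbours, 2000 variable genes) with 47 Hox-named genes left out, and were named from marker lists. Values are given for members that passed in at least 1 comparison or were among the 8 highest by mean CPM; other genes came from 5 lists. The model was tested on simulated data. Replicate numbers did not pair samples. Results for some members and listed genes are not reported here.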

Additional observations from a re-analysis of the deposited data

Results flagged for a closer look

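The lineage difference varied with stage for 2 members in a test of the interaction itself with limma over all tested genes. Hoxa10 had an adjusted p of 0.0426 and Hoxc9 of 0.0460. For both, the 2 Isl1Cre E8.25 libraries were above both Nkx2-5Cre E8.25 libraries, with Hoxa10 at 6.87 and 10.3 CPM in Isl1Cre E8.25 against 0 in Nkx2-5Cre E8.25, and Hoxc9 at 14.8 and 17.3 CPM in Isl1Cre E8.25 against 0 and 1.78 CPM in Nkx2-5Cre E8.25. Neither had a count at the other 3 stages in either lineage. Both members passed the filter on low values only through the Isl1Cre E8.25 libraries, so the result is partly set by the filter.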

How the results depend on the processing

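Of 46 single-member calls, each repeated under the alternatives, 997 of 1203 repeats stayed on the same side of the threshold, 206 no longer passed and 0 changed direction. The counts of members called moved more. With a pseudocount of 10 CPM, 5 passed for the mean lineage difference, 1 at E7.75, 0 for Nkx2-5Cre E9.25 against E8.75 and 8 for the interaction. With a filter of 1 CPM the counts were 5 for the mean difference, 18 at E8.25, 22 for Isl1Cre E8.75 against E8.25 and 7 for the interaction. With no filter they were 8, 17, 29 and 11, with 20 for Isl1Cre E8.25 against E7.75 and 0 for Nkx2-5Cre E9.25 against E8.75. Looser filters admitted more members to the test than the 17 of the main filter, so these counts are not out of 17. The number of members tested and the share of all tested genes called under these filters are not given here. No such share is given for the pseudocount, or for edgeR and DESeq2 in any section, so these counts are descriptions.

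On counts, edgeR called 6 members at E8.25, 1 at E7.75, 1 at E8.75, 1 for Isl1Cre E9.25 against E8.75 and 6 for Nkx2-5Cre E8.25 against E7.75. DESeq2 called 5 at E8.25, 1 at E7.75, 1 at E8.75, 1 at E9.25, 2 for Isl1Cre E8.25 against E7.75, 6 for Isl1Cre E8.75 against E8.25, 1 for Isl1Cre E9.25 against E8.75 and 5 for Nkx2-5Cre E8.25 against E7.75. With cells of at least 20000 counts, 1 was called at E8.75 and 6 for the interaction. With thinned cells the counts were 1 for the mean difference, 1 for Nkx2-5Cre E9.25 against E8.75 and 0 for the interaction, and with the share of thinned cells 0, 0 and 1, with 1 at E7.75. Cardiomyocyte-like cells alone gave 0 at E8.25 and 0 for a mean difference without E7.75, where each library had under 10 such cells. Library means averaged to 1 unit per group, with stage and lineage fitted, gave 0 for the mean difference. Without cluster 14, chosen after seeing the data, the counts were 0 for the mean difference, 9 for Isl1Cre E8.75 against E8.25 and 1 for the interaction. The genes tested there were those that passed the filter with cluster 14 included.

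With 1 library left out in turn, a lone library being assumed to vary like the other groups, the counts spanned 1 to 6 for the mean difference, 3 to 11 at E8.25, 0 to 1 at E7.75, 0 to 0 at E8.75 and at E9.25, 6 to 12 for Isl1Cre E8.25 against E7.75, 10 to 15 for Isl1Cre E8.75 against E8.25, 0 to 0 for Isl1Cre E9.25 against E8.75, 1 to 4 for Nkx2-5Cre E8.25 against E7.75, 0 to 1 for Nkx2-5Cre E8.75 against E8.25, 0 to 2 for Nkx2-5Cre E9.25 against E8.75 and 0 to 3 for the interaction. Same-numbered libraries showed no pairing, with correlations of their deviations of −0.0315 to 0.166 over 21 pairs of groups, 1 of them above 0.1. With the replicate block the interaction count was 1.

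The percent of cells with a Hox member detected, averaged over the 15 libraries, was 40.7 at 20000 counts, 53.7 at 50000, 31.1 at 10000, 61.8 with no thinning and 20.5 with at least 2 counts required. With at least 5 counts and no thinning, chosen after seeing the data, it was 29.6, and it spanned 37.7 to 42.8 without a library. The highest Hox paralog number per cell averaged 1.37, and 1.92, 0.986, 2.44, 0.575 and 0.837 under the same settings, spanning 1.08 to 1.45. These shares rest on depth by construction, and lack of a count in a cell at this depth does not show absence. The cause of the other changes was not tested.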
